A study of Mus musculus with 4 samples.

Results

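The 34 cholesterol and lipid handling genes described here were followed in CD45+ immune cells sorted from mouse skin and from transplanted skin tumors, out of 31053 genes in the count tables. They were given as a list of names, which sets no threshold on a measured value, although the list was drawn up with earlier results of these data known. All 34 were found in the tables of all 4 libraries. The list held 16 enzymes of sterol synthesis, 6 regulators (Insig1, Srebf1, Srebf2, Nr1h3, Mylip and Pparg), 5 enzymes of fatty acid synthesis (Acly, Acaca, Fasn, Scd1 and Scd2) and 7 genes of lipid efflux, uptake and storage (Abca1, Abcg1, Lpl, Plin2, Fabp4, Fabp5 and Cd36). The sterol enzymes were Hmgcs1, Mvd, Mvk, Pmvk, Idi1, Fdps, Fdft1, Sqle, Lss, Cyp51, Msmo1, Nsdhl, Hsd17b7, Dhcr7, Sc5d and Ebp.

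Control skin was 2 samples of normal skin from uninoculated C57BL/6 mice, and skin tumor was 2 tumors grown in C57BL/6 mice after injection of 2323 cells into the flank. The 2323 line came from a skin tumor of a genetically modified mouse, and both tumors came from this line. The labels give C57/BL6 as the genotype of both groups. The inoculated mice were young adults of both sexes, and the sex and age of each library's mouse were not given in the sources used here. Live cells (DAPI-) were sorted and 1 droplet library of 3′ transcripts was made per sample. Nothing in the labels ties a library to 1 animal, so p-values measure the spread between these libraries.

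Cells make cholesterol from acetyl units through the mevalonate pathway, whose genes are switched on together by the transcription factor SREBP2, the product of Srebf2, when membranes run low in sterol. Insig1 holds that factor back in the endoplasmic reticulum. Surplus sterol is sensed by the LXR receptors (Nr1h3 encodes LXR alpha), which switch on the exporters Abca1 and Abcg1 and the ubiquitin ligase Mylip, which removes lipoprotein receptors. Macrophages and dendritic cells also take up fatty acids through lipoprotein lipase (Lpl) and the scavenger receptor Cd36, carry them on fatty acid binding proteins and store them in droplets coated by Plin2.

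The tables contained 3499, 3862, 5176 and 2258 cells in the order of libraries used below, with between 34893543 and 73904272 unique molecular identifiers (UMIs) per library. After filters and removal of likely doublets, 2892, 2994, 4555 and 1954 cells were kept, and any pair of libraries shared between 1 and 7 cell barcodes. Cells were assigned to 17 classes by UMIs of marker genes, none of them among the 34, and between 18.0% and 28.0% of cells per library met no gate. UMIs were summed per class and library, and 12 classes had at least 10 cells in every library and could be tested. Levels below are UMIs of a gene per 10,000 UMIs of the class, always in the order control skin 1, control skin 2, skin tumor 1, skin tumor 2. Fold changes are log2 values of skin tumor over control skin from edgeR's quasi-likelihood test, with the standard error (SE) and with p adjusted by the Benjamini-Hochberg method over all genes of the class. A gene is said to have risen or fallen where this adjusted p was under 0.05. With 2 libraries per group, an exact permutation test of a single value could not go below p = 0.333. Counts of genes at an unadjusted p under 0.05 are given without a share over all genes and are descriptions. So are counts under alternative settings, where the number called over all genes changed too.

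Over the 12 classes, 262 tests of the 34 genes gave 9 rises and 21 falls, spread over 17 genes. No share over all genes was pooled over the classes, so these totals are descriptions. The other 17 genes passed the test in no class. The calls lay in myeloid cells, apart from 2 in cycling lymphoid cells, and cDC2 (type 2 conventional dendritic cells) held 12 of the 30. Calls over all genes differed between classes as well. In cDC2, 3.82% of all genes rose and 5.97% fell, and in cycling myeloid cells 6.19% and 5.97%. In either direction, 3.24% changed in CD8 T cells, 0.205% in regulatory T cells and 0% in neutrophils. The spread of calls over classes is therefore a description. In cDC2, 5 of 14 sterol enzymes tested rose, and of 6 genes of efflux, uptake and storage 4 fell and 1 rose. In macrophages, 2 of 7 genes of efflux, uptake and storage and 2 of 6 regulators fell, and none of 16 sterol enzymes was called. Over all genes of macrophages, 0.799% rose and 1.41% fell.

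**Figure D1:**
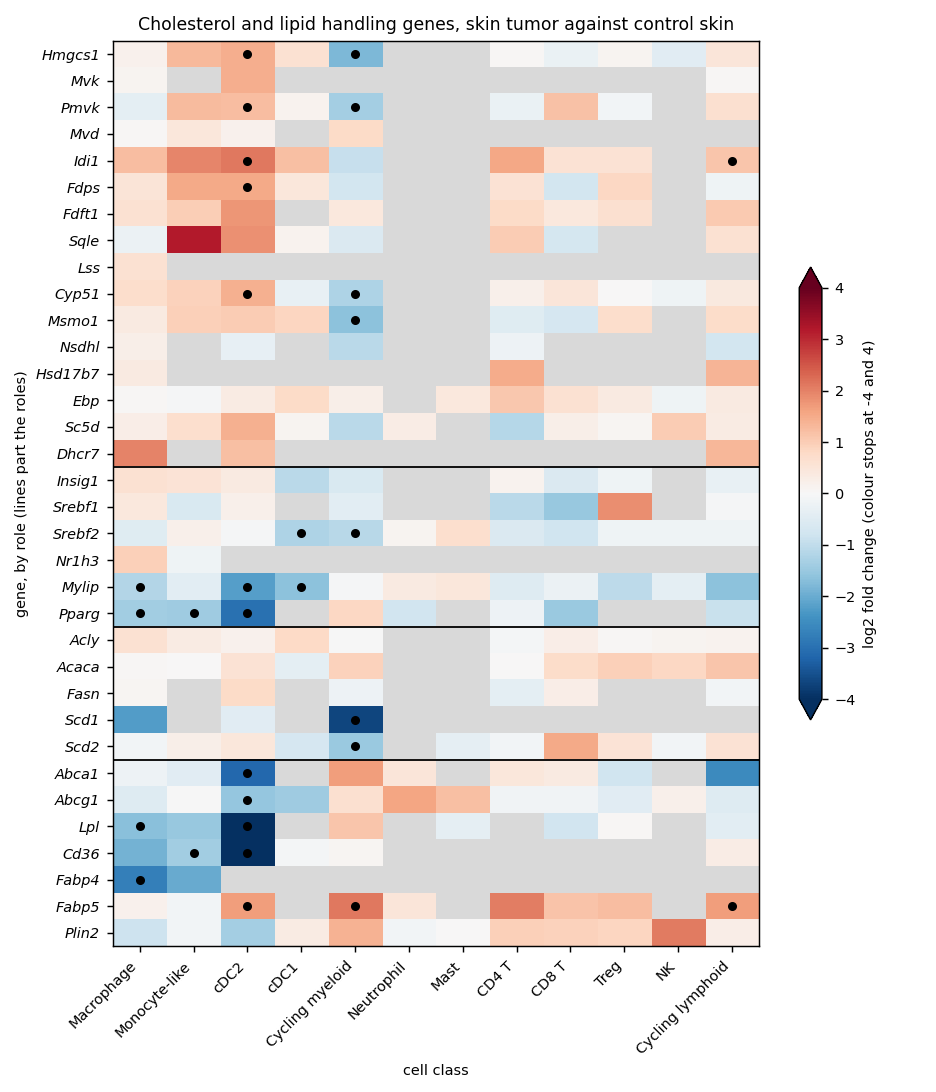
Log2 fold change of skin tumor over control skin for the 34 genes (vertical axis, grouped by role) in the 12 classes tested (horizontal axis), with a black point on the 30 changes with an adjusted p under 0.05 and grey where the gene did not pass the filter on low counts. In the cDC2 column, 6 points lie on red cells and 6 on blue cells.

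cDC2 are antigen-presenting cells of the dermis, here gated by Mgl2, Cd209a and related markers, with 56, 108, 117 and 41 cells. Of the 34 genes, 30 were tested in this class, 6 rose and 6 fell. Over all 8499 genes tested in cDC2, 3.82% rose and 5.97% fell. The median log2 change was 1.42 over the 14 sterol synthesis genes tested and -2.35 over the 6 genes of efflux, uptake and storage, next to 0.02 over all genes.

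The 5 sterol enzymes that rose in cDC2 stand at early, middle and late steps of the pathway. Hmgcs1 (ENSMUSG00000093930, chr13:119690379-119708260 of GRCm38, plus strand), which makes HMG-CoA, was at 0.282, 0.202, 0.911 and 0.549 UMIs per 10,000. Both tumor libraries lay above both control libraries, and the log2 change was 1.47 (SE 0.32, adjusted p = 0.0312). Pmvk (ENSMUSG00000027952, chr3:89454541-89469013, plus strand), the phosphomevalonate kinase, was at 0.359, 0.318, 1.05 and 0.717, a log2 change of 1.23 (SE 0.26, adjusted p = 0.0283).

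Idi1 (ENSMUSG00000058258, chr13:8885501-8892451, plus strand) encodes the isomerase of isopentenyl diphosphate, and its levels were 0.179, 0.157, 0.866 and 0.748. This was a 4.27-fold rise, or 2.09 on the log2 scale (SE 0.26, adjusted p = 0.00525), and the groups were far apart relative to the spread within each. Fdps (ENSMUSG00000059743, chr3:89093588-89101959, minus strand), the farnesyl diphosphate synthase, was at 0.282, 0.283, 0.82 and 1.05, a log2 change of 1.52 (SE 0.25, adjusted p = 0.0134). Cyp51 (ENSMUSG00000001467, chr5:4081145-4104746, minus strand), the lanosterol demethylase, was at 0.282, 0.283, 0.977 and 0.733, a log2 change of 1.43 (SE 0.25, adjusted p = 0.0148).

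The other 9 sterol enzymes tested in cDC2 did not pass the test. Fdft1, which makes squalene, had a log2 change of 1.75 (SE 0.45) and Sqle, the squalene epoxidase, 1.81 (SE 0.59). Sc5d and Mvk had 1.41 and 1.44, Dhcr7 1.20, Msmo1 1.02, Ebp 0.31 and Mvd 0.16. Nsdhl was the only one below 0, at -0.33, and Lss and Hsd17b7 were too low in counts to test. Of the regulators of the pathway, Srebf2 had a log2 change of -0.05 (SE 0.19), Srebf1 0.20 and Insig1 0.37, none of them called.

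The promoters of the enzymes that rose together are shown for 4 of them, as RefSeq start sites place them in GRCm38.p6. Each line runs 5′ to 3′ on the gene's strand, from 250 bases before the start site to 50 after it, and capitals mark 2 motifs searched on both strands. These are CCAAT, the box bound by NF-Y, and TCACNCCAC, a sterol regulatory element in which N is any base. The windows lie at chr13:119690101-119690400 (Hmgcs1), chr3:89454291-89454590 (Pmvk), chr13:8885356-8885655 (Idi1) and chr5:4104648-4104947 (Cyp51, minus strand).
Hmgcs1: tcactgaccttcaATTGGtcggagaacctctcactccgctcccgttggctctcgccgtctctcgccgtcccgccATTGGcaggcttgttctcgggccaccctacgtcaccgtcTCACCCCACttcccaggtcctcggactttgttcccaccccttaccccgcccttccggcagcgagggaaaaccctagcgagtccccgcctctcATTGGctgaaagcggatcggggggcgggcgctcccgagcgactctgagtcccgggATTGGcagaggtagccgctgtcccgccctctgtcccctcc
Pmvk: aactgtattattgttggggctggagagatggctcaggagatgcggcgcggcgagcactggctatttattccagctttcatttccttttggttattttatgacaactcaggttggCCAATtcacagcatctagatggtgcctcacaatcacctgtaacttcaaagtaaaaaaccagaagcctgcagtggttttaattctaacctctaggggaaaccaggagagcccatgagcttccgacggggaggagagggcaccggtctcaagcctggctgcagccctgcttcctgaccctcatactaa
Idi1: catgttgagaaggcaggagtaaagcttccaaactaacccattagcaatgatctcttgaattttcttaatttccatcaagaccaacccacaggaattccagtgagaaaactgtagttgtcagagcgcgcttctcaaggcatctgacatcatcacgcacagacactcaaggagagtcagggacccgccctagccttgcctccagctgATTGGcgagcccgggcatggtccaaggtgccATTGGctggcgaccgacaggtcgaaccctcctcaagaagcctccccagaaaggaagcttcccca
Cyp51: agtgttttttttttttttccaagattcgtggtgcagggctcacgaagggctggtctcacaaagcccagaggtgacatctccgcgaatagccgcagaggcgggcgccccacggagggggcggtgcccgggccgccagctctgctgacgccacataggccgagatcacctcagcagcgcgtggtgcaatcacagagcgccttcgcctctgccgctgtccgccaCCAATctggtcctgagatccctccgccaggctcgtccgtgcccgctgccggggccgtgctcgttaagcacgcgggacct
In the Hmgcs1 window, TCACNCCAC begins 137 bases before the start site, next to 4 CCAAT boxes, 3 of which lie before the start. CCAAT begins 136 bases before the start in Pmvk, 45 and 14 bases before it in Idi1 and 29 bases before it in Cyp51. A window was held for 25 of the 34 genes, with Fdps not among them. Some genes have several start sites and windows, and those shown lie nearest to the annotated gene start. In the nearest windows, CCAAT was found for 20 of the 25 genes and 12 of the 13 sterol enzymes, with Dhcr7 the exception. Counting any window of a gene, it was found for 22 of the 25, and for 41.1% of all genes counted in the same way. TCACNCCAC was found for 1 of the 25 genes by either count and for 1.44% of all genes by the second. A match in these letters is a description of the window and shows no binding. Other forms of the sterol regulatory element were not searched, so the lack of a match does not show that a window lacks one.

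Among the genes of lipid uptake and efflux, Lpl (ENSMUSG00000015568, chr8:68880491-68907448, plus strand), the lipase that frees fatty acids from lipoproteins, had the largest fall in cDC2. Its levels were 1.78, 1.23, 0.0557 and 0.0611, a log2 change of -4.88 (SE 0.34, adjusted p = 0.000932). The tumor libraries held 11 and 4 Lpl UMIs in cDC2. CD8 T cells of the same libraries, which should lack the gene, were at 0.00399 and 0.324, so the value of skin tumor 2 lay below that background. Cd36 (ENSMUSG00000002944, chr5:17781690-17888801, minus strand) was at 3.02, 0.531, 0.0861 and 0.0305, a log2 change of -4.83 (SE 0.92, adjusted p = 0.02). The 2 control libraries differed widely for Cd36, and both still lay above the tumors. CD8 T cells averaged 0.259 for Cd36 over the tumor libraries, with an SD of 0.344 that exceeded the mean. That mean lay above both tumor values in cDC2, but the 2 CD8 T libraries differed widely. The Cd36 value of skin tumor 2 in cDC2 rests on fewer UMIs than the 4 of Lpl.

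Abca1 (ENSMUSG00000015243, chr4:53030787-53159895, minus strand), the exporter that loads cholesterol onto apolipoproteins, was at 1.71, 1.74, 0.147 and 0.351 in cDC2. It was 8.9-fold higher in control skin, with a log2 change of -3.15 (SE 0.37, adjusted p = 0.00438). CD8 T cells of the tumor libraries were at 0.0399 and 0.924 for Abca1. The cDC2 value of skin tumor 2 thus lay below that of CD8 T cells in the same library. Abcg1 (ENSMUSG00000024030, chr17:31057675-31117988, plus strand), which exports cholesterol to lipoprotein particles, was at 2.35, 1.73, 0.729 and 0.87, a log2 change of -1.55 (SE 0.24, adjusted p = 0.0104). Both exporters are targets of LXR, as is Mylip.

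Mylip (ENSMUSG00000038175, chr13:45389742-45412022, plus strand) was at 0.666, 0.465, 0.157 and 0.107 in cDC2, a log2 change of -2.19 (SE 0.34, adjusted p = 0.0104). Pparg (ENSMUSG00000000440, chr6:115360951-115490399, plus strand), the nuclear receptor that directs fatty acid uptake and storage, was at 2.00, 1.92, 0.309 and 0.229. The control libraries were nearly equal, and the log2 change was -3.00 (SE 0.23, adjusted p = 0.00139). Fabp5 (ENSMUSG00000027533, chr3:10012548-10016607, plus strand), a fatty acid carrier, moved the other way, at 1.32, 0.748, 2.49 and 4.93, a log2 change of 1.66 (SE 0.39, adjusted p = 0.0393). Plin2, the droplet coat protein, had -1.35 (SE 0.39) and did not pass the test, and Fabp4 was too low to test.

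**Figure D2:**
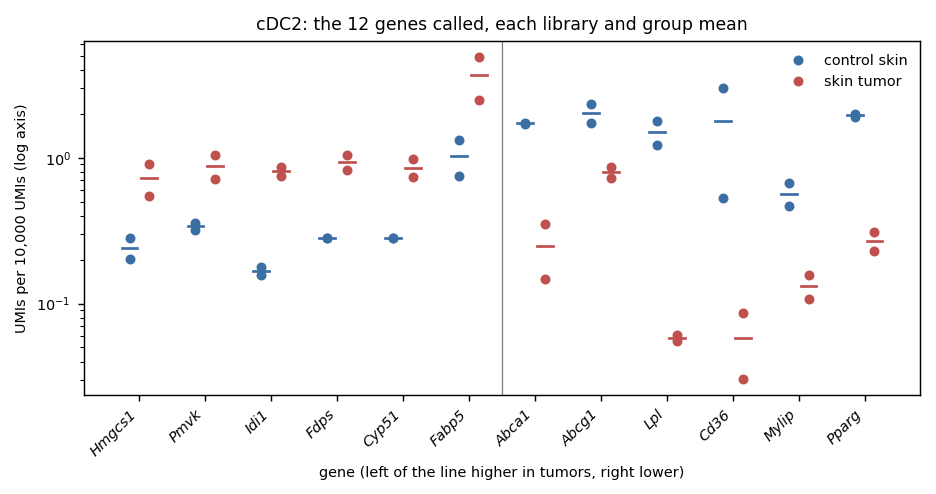
Level in cDC2 (UMIs per 10,000 UMIs of the class, log axis) of the 12 genes called there (horizontal axis), 1 point per library and a bar at the mean of each group (n = 2). Lpl has the widest gap between the groups, and the 2 control points of Cd36 lie far apart.

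Macrophage markers moved with these cDC2 results. The 7 macrophage markers summed to 9.13 and 10.0 UMIs per 10,000 in control cDC2 and 3.76 and 3.89 in tumor cDC2, with all 7 detected in each library, although the gate itself left out cells high in C1q genes or Fcgr1. Without Cd68, these markers (C1qa, C1qb, C1qc, Adgre1, Fcgr1 and Mrc1) summed to 7.08, 8.12, 2.00 and 2.46. An alternative chosen after seeing the data left out cDC2 with at least 4 UMIs per 10,000 of this smaller set. In it, 2 genes rose (Idi1 and Fabp5) and 3 fell (Abca1, Lpl and Pparg). There Lpl had a log2 change of -4.76, Pparg -2.96, Abca1 -2.51, Idi1 2.54 and Fabp5 2.57. The other calls were lost. Hmgcs1 then had 1.57, Cyp51 1.58, Fdps 1.23, Pmvk 0.83, Abcg1 -1.28 and Mylip -2.06, and Cd36 was too low in counts to test. Over all 5842 genes tested there, 54 rose and 54 fell, against 325 and 507 of 8499 with all cDC2. Why these calls were lost was not tested. With all cDC2 but without control skin 1 or control skin 2, fewer of the listed genes were called, and fewer over all genes. Without skin tumor 2, more were called by both counts. Without skin tumor 1, fewer of the listed genes rose and more fell, while more were called over all genes. Idi1, Abca1, Lpl, Cd36, Mylip and Pparg were called in all 4 of these fits.

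Macrophages were gated by C1q genes, with 78, 240, 1885 and 646 cells. All 34 genes were tested, none rose and 4 fell. Over the 12147 genes tested in macrophages, 0.799% rose and 1.41% fell. With bulk sums of this kind, fewer expressing cells and less RNA per cell cannot be told apart. At an unadjusted p under 0.05, 15 of the 34 genes passed, with no share over all genes to set beside them. DESeq2 called 1 rise and 5 falls among the 34. Over all genes it called 264 rises and 416 falls, against 97 and 171 by edgeR.

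Lpl was at 2.45, 3.67, 1.04 and 1.09 UMIs per 10,000 in macrophages, a 3.20-fold fall (log2 -1.68, SE 0.24, adjusted p = 0.0204). The tumor libraries were nearly equal and well below both controls. After each cell was thinned to 1000 UMIs, 11.5% (95% exact interval 5.41 to 20.8) and 19.2% (14.4 to 24.7) of control macrophages and 5.15% (4.19 to 6.24) and 5.73% (4.06 to 7.81) of tumor macrophages had an Lpl UMI. These intervals cover counting error only. The same shares were 0.654%, 0%, 0% and 2.00% in CD8 T cells, with upper limits of 6.49% and 1.53% where no cell had one. Median depth was between 14092 and 19088 UMIs per cell in macrophages and between 9043 and 9905 in CD8 T cells. Without thinning, 42.3%, 47.1%, 29.2% and 32.8% of macrophages had an Lpl UMI.

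Pparg was at 1.35, 1.35, 0.63 and 0.524 in macrophages, a log2 change of -1.38 (SE 0.18, adjusted p = 0.0129). Mylip was at 1.09, 1.20, 0.571 and 0.565, a log2 change of -1.16 (SE 0.18, adjusted p = 0.0234). Within each group the replicates of these genes lay close together. Fabp4 (ENSMUSG00000062515, chr3:10204088-10208576, minus strand), the fatty acid carrier best known from fat cells, was low throughout, at 0.0972, 0.182, 0.0214 and 0.0268, a log2 change of -2.74 (SE 0.42, adjusted p = 0.0249).

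Cd36 was at 4.39, 3.83, 0.744 and 1.67 in macrophages, a log2 change of -1.90 (SE 0.40) that did not pass the test (adjusted p = 0.065 by edgeR). Plin2 was at 6.61, 5.86, 3.09 and 4.69 and Abcg1 at 1.84, 2.22, 1.55 and 1.58, and neither passed. Abca1 was at 3.63, 7.07, 3.93 and 6.31, so that its groups overlapped, and Fabp5 at 2.51, 2.79, 2.44 and 4.08 overlapped likewise. Nr1h3, which encodes LXR alpha, was at 0.0907, 0.152, 0.312 and 0.235, with a log2 change of 0.95 (SE 0.30) that was not called.

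Sterol synthesis in macrophages gave 0 calls among 16 genes by edgeR, with 3 genes at an unadjusted p under 0.05. The median log2 change of these enzymes was 0.31, next to 0.03 over all genes. Dhcr7, the last reductase of the pathway, had the largest difference, 1.98 (SE 0.42, adjusted p = 0.065 by edgeR), followed by Idi1 with 1.23 and Cyp51 with 0.69. Hmgcs1 was at 0.369, 0.363, 0.471 and 0.454, a log2 change of 0.19 (SE 0.19). Among the fatty acid enzymes, Acly, which makes acetyl-CoA from citrate, had 0.60 and the desaturase Scd1 had -2.22, and neither was called.

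**Figure D3:**
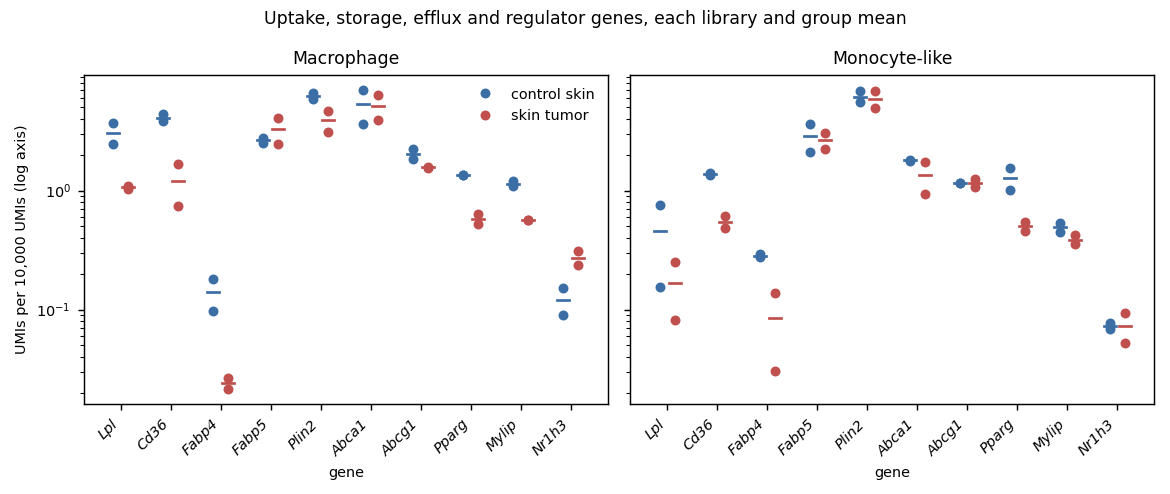
Level (UMIs per 10,000 UMIs of the class, log axis) of 10 uptake, storage, efflux and regulator genes in macrophages (left) and monocyte-like cells (right), 1 point per library and a bar at each group mean (n = 2). Lpl, Cd36, Fabp4, Pparg and Mylip lie lower in both tumor libraries in macrophages, of which Lpl, Fabp4, Pparg and Mylip passed the test, while Abca1 and Fabp5 overlap.

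In the macrophage class, the 7 macrophage markers summed to 59.9, 63.5, 95.2 and 67.4 UMIs per 10,000. Markers of fat cells, which express Lpl, Fabp4, Cd36 and Pparg strongly, summed to 0, 0.00746, 0.00231 and 0.00153, with Adipoq, Plin1, Cfd, Cidec, Lep and Plin4 all at 0 in control skin 1 and 4 of these 6 at 0 in control skin 2. Keratinocyte markers summed to 0.0583, 0.0721, 0.0133 and 0.0138 and fibroblast markers to 0.0777, 0.405, 0.0442 and 0.0865, both higher in control skin 2 than in either tumor. When cells with UMIs of such non-immune markers were left out, 3 of the 4 genes still fell and Lpl had a log2 change of -1.48 without a call. Without control skin 1 or control skin 2, none of the listed genes was called in macrophages, and fewer genes were called over all genes. Without skin tumor 1 or skin tumor 2, more were called, both among the listed genes and over all genes.

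Monocyte-like cells, low in C1q and gated by Ly6c2, Plac8 and related genes, numbered 50, 143, 505 and 145. Of 27 genes tested, 0 rose and 2 fell, where 0.737% of 8681 genes rose and 1.84% fell. Cd36 was at 1.36, 1.40, 0.48 and 0.614, a log2 change of -1.38 (SE 0.24, adjusted p = 0.024). Pparg was at 1.01, 1.55, 0.549 and 0.457, a log2 change of -1.41 (SE 0.27, adjusted p = 0.0375). Both groups were separate for each gene, as they were for Pparg in macrophages and cDC2.

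The 11 sterol enzymes tested in monocyte-like cells had a median log2 change of 0.98, with 10 above 0 and none called by edgeR or DESeq2, and 6 of the 11 at an unadjusted p under 0.05. Sqle had 3.17 (SE 0.81), Idi1 1.96, Fdps 1.52 and Pmvk 1.28. Their tumor libraries differed from each other, for example 0.491 and 0.182 for Idi1 against 0.103 and 0.0777 in control skin. Of the fits that left out 1 library, the one without skin tumor 2 gave the most rises among the listed genes. It also gave the most calls over all genes. Both falls were lost without control skin 2. The number called over all genes changed in each of these fits.

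Whether the tumor effect differed between classes was tested with the library as a block. Between macrophages and cDC2, 5 of 32 genes differed, where 3.12% of 9954 genes did. The log2 effect in macrophages minus that in cDC2 was 3.20 for Lpl (SE 0.49, adjusted p = 0.0107) and 1.67 for Pparg (SE 0.25, adjusted p = 0.0107), both of which fell in each class. It was 2.95 for Abca1 (SE 0.36, adjusted p = 0.00553), which fell in cDC2 and was not called in macrophages. The effect in macrophages was below that in cDC2 for Pmvk (-1.64, SE 0.34, adjusted p = 0.0381) and Fabp5 (-1.52, SE 0.31, adjusted p = 0.0365). Without the library block, only Lpl and Pparg of these 5 were called.

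Between macrophages and monocyte-like cells, 1 of 33 genes differed, where 1.76% of 10740 genes did. This was Pmvk, with -1.73 (SE 0.32, adjusted p = 0.0369), and it was not called without the block. Between macrophages and CD8 T cells, edgeR called none of the 33 genes and 0% of 10735 genes, and 7 of the 33 had an unadjusted p under 0.05.

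In cDC1, cross-presenting dendritic cells gated by Xcr1 and Clec9a with 19, 28, 87 and 15 cells, 18 genes were tested, 0 rose and 2 fell. Over the 5682 genes tested, 2.6% rose and 2.83% fell. Srebf2 (ENSMUSG00000022463, chr15:82147181-82205379, plus strand) was at 2.35, 2.85, 1.47 and 1.03, a log2 change of -1.25 (SE 0.31, adjusted p = 0.042). Mylip was at 1.04, 0.944, 0.362 and 0.371, a log2 change of -1.65 (SE 0.37, adjusted p = 0.0283). Neither was called by DESeq2. Fewer falls were called without control skin 1 and none without control skin 2, and in both fits fewer genes were called over all genes. Without skin tumor 1 or skin tumor 2, falls among the listed genes were as many as before, while more were called over all genes.

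Cycling myeloid cells, gated by Mki67, Top2a and other division genes together with H2-Ab1 and low CD3, numbered 24, 36, 143 and 29. Of 28 genes tested, 1 rose and 7 fell, where 6.19% of 8335 genes rose and 5.97% fell. The cells of the 2 groups were not of the same kind. Cd207, which marks Langerhans cells, was found in 21 of 24 and 28 of 36 control cells and in 1 of 143 and 0 of 29 tumor cells. The 3 C1q genes of macrophages summed to 1.40 and 3.74 UMIs per 10,000 in control cells and 60.8 and 37.4 in tumor cells. The values below are therefore set beside those of the Langerhans-like class, which had 316 and 233 cells in control skin and 0 and 4 in tumors, and beside macrophages.

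Hmgcs1 was at 2.06, 0.89, 0.486 and 0.371 in cycling myeloid cells, a log2 change of -1.80 (SE 0.43, adjusted p = 0.0423). It was at 2.33 and 1.52 in control Langerhans-like cells and at 0.471 and 0.454 in tumor macrophages. Pmvk was at 1.20, 1.05, 0.42 and 0.503 (log2 -1.37, SE 0.25, adjusted p = 0.0184), beside 2.00 and 1.99 in Langerhans-like cells and 0.342 and 0.401 in tumor macrophages. For both genes the control cycling cells lay between these values.

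Cyp51 fell by 1.25 on the log2 scale (SE 0.28), from 1.15 and 0.806 to 0.444 and 0.407, beside 0.914 and 0.555 in control Langerhans-like cells. Msmo1 (ENSMUSG00000031604, chr8:64718139-64733792, minus strand), the sterol methyl oxidase, fell by 1.65 (SE 0.37), from 1.12 and 0.681 to 0.354 and 0.215, beside 1.41 and 0.754 in control Langerhans-like cells. Their regulator Srebf2 fell by 1.11 (SE 0.23), from 2.21 and 2.10 to 1.10 and 0.981, and it was at 2.49 in both control libraries of Langerhans-like cells. The adjusted p of these genes were 0.0351, 0.0365 and 0.0266.

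The desaturase genes Scd1 (ENSMUSG00000037071, chr19:44394455-44407879, minus strand) and Scd2 (ENSMUSG00000025203, chr19:44293674-44306864, plus strand) introduce a double bond into saturated fatty acids. Scd1 was at 0.214, 0.325, 0.0214 and 0.0239 in cycling myeloid cells, a log2 change of -3.67 (SE 0.49, adjusted p = 0.00743), and at 0.275 and 0.313 in control Langerhans-like cells. In skin tumor 2, with 29 cells of this class, the Scd1 value rests on very few UMIs. Scd2 was at 1.35, 1.75, 0.619 and 0.539, a log2 change of -1.48 (SE 0.24, adjusted p = 0.0137), and both control libraries lay above control Langerhans-like cells (0.755 and 0.843). Fabp5 rose, at 0.642, 0.209, 1.52 and 2.18 (log2 2.10, SE 0.51, adjusted p = 0.0438), with 0.28 and 0.273 in control Langerhans-like cells and 2.44 and 4.08 in tumor macrophages. Most of the falls were lost without control skin 1, control skin 2 or skin tumor 1, where fewer genes were also called over all genes. Without skin tumor 2, more genes rose, both among the listed genes and over all genes.

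**Figure D4:**
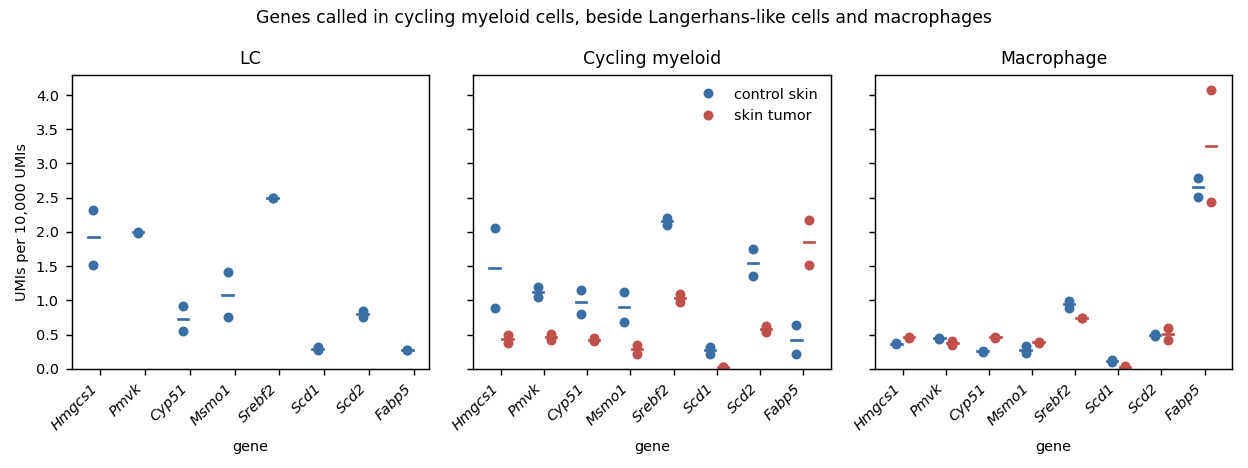
Level (UMIs per 10,000 UMIs of the class) of the 8 genes called in cycling myeloid cells, in Langerhans-like cells (LC, left), cycling myeloid cells (middle) and macrophages (right), 1 point per library with at least 10 cells and a bar at each group mean (n = 2). Hmgcs1, Pmvk and Srebf2 of control cycling cells lie below the highest Langerhans-like value and above tumor macrophages, and Fabp5 is highest in macrophages. Scd2 of control cycling cells lies above both control Langerhans-like values, and Cyp51 and Scd1 lie above the highest of them in 1 library.

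Cycling lymphoid cells numbered 65, 69, 144 and 27, and 2 of 29 genes rose, where 2.39% of 9063 genes rose and 7.53% fell. Fabp5 was at 0.321, 0.216, 0.847 and 1.07, a log2 change of 1.68 (SE 0.30, adjusted p = 0.0249). Idi1 was at 0.29, 0.266, 0.672 and 0.654, a log2 change of 1.12 (SE 0.26, adjusted p = 0.0467). No gene fell by edgeR or DESeq2, and 6 genes in either direction had an unadjusted p under 0.05. Neither rise was called without control skin 1 or control skin 2, where fewer genes were also called over all genes. Without skin tumor 1, fewer of the listed genes rose but more did over all genes. Without skin tumor 2, more were called by both counts. The 4 genes listed for Langerhans cells (Cd207, Epcam, Mfge8 and Cd74) summed to 14.1, 22.5, 1.03 and 3.97 UMIs per 10,000 in this class. Cd207 was at 0 in both tumors, so the sums there came from the other genes of the list. The part of these genes in the result was not tested. The class was not split by kind of lymphoid cell. The paper reports lower relative percentages of dendritic epidermal T cells and dermal γδ T cells in skin tumors. Whether the mix of lymphoid cells in this class differed between the groups was not tested. The rises of Fabp5 and Idi1 are therefore given for the class as a whole.

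In the other lymphocytes, edgeR and DESeq2 called none of the genes tested. These were 25 genes in CD4 T cells, 24 in CD8 T cells, 21 in regulatory T cells (Treg) and 11 in NK cells, and 4, 4, 3 and 1 of them had an unadjusted p under 0.05. Over all genes, 3.56%, 3.24%, 0.205% and 1.42% changed in either direction. In CD8 T cells, Scd2 was at 0.264, 0.237, 0.966 and 0.584, a log2 change of 1.51 (SE 0.34, adjusted p = 0.074 by edgeR). Among these tested classes, Fabp5 had log2 values of 2.04 in CD4 T cells, 1.13 in CD8 T cells and 1.24 in Treg, none of them called. Dendritic epidermal T cells and dermal γδ T cells were not tested. Their Fabp5 averaged 0.288 and 0.394 in control skin. It was lower, at 0.0951 and 0.283, in the 1 tumor library of each with at least 10 cells. Fabp5 levels in CD4 T cells were 0.268, 0.293, 0.444 and 1.94, with skin tumor 2 far above the rest. Abca1 (0.164 and 1.25 in the tumors) and Plin2 (0.415 and 1.75) were also higher in CD4 T cells of skin tumor 2. In Treg, Fabp5 was at 1.13 and 0.965 in the tumors. Whether transcripts of other cells add to these T cell values was not tested. Leaving out 1 library changed how many of these genes were called in CD4 T, CD8 T, Treg and NK cells. It also changed how many were called over all genes in these classes.

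In neutrophils, edgeR called none of 8 genes and 0% of 4011 genes, 1 of the 8 had an unadjusted p under 0.05, and DESeq2 called none of the 8. In mast cells, none of 7 genes was called by edgeR or DESeq2 or had an unadjusted p under 0.05, where 0.748% of 2675 genes changed. These classes had as few as 17 and 25 cells in a library, and most of the 34 genes did not pass the count filter there. Plin2 in neutrophils was at 6.47, 6.51, 7.43 and 4.81 UMIs per 10,000, with overlapping groups.

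Across classes, the 34 genes had different centers. In control skin, 16 classes had at least 10 cells in both libraries, and Abca1, Lpl, Cd36, Nr1h3 and Mylip were highest on average in macrophages, each with a range apart from the next class. Hmgcs1, Pmvk, Sqle, Msmo1 and Scd1 were highest in Langerhans-like cells, and 7 genes (Idi1, Fdft1, Cyp51, Nsdhl, Ebp, Insig1 and Scd2) in cycling myeloid cells, which in control skin mostly carried Cd207, and of these only Scd2 had a range apart from the next class. Pparg and Abcg1 were highest in cDC2, where Abcg1 was at 2.35 and 1.73 and did not differ from macrophages (1.84 and 2.22) beyond the spread of the libraries. These orders are descriptions, since the classes share libraries.

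In skin tumors, 13 classes had at least 10 cells in both libraries, and mature dendritic cells (mDC, gated by Ccr7 and Fscn1) were highest for 10 genes. These were Hmgcs1, Mvk, Pmvk, Idi1, Fdft1, Sqle, Lss, Cyp51, Srebf2 and Fabp5. Hmgcs1 was at 1.68 and 1.99, Pmvk at 1.91 and 1.62 and Idi1 at 2.80 and 2.78 in the 44 and 11 tumor mDC, above the next class in every library. Next in order were cycling lymphoid cells for Hmgcs1 and cDC2 for Pmvk and Idi1. For Lss and Srebf2 the ranges of mDC and the next class overlapped.

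Fabp5 averaged 19.0 UMIs per 10,000 over the tumor libraries of mDC (1534 and 385 UMIs in 44 and 11 cells), followed by tumor cDC2 at 2.49 and 4.93. After thinning to 1000 UMIs per cell, 61.4% (95% exact interval 45.5 to 75.6) and 72.7% (39.0 to 94.0) of tumor mDC had a Fabp5 UMI, intervals that cover counting error only. CD8 T cells of the same libraries gave 2.93% and 0%, the latter with an upper limit of 7.11%. Median depth was 16406 and 20812 UMIs in mDC and 9341 and 9701 in CD8 T cells. The control libraries held only 7 and 4 mDC, with Fabp5 at 13.5 and 83.1, and no comparison between groups was made for this class.

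**Figure D5:**
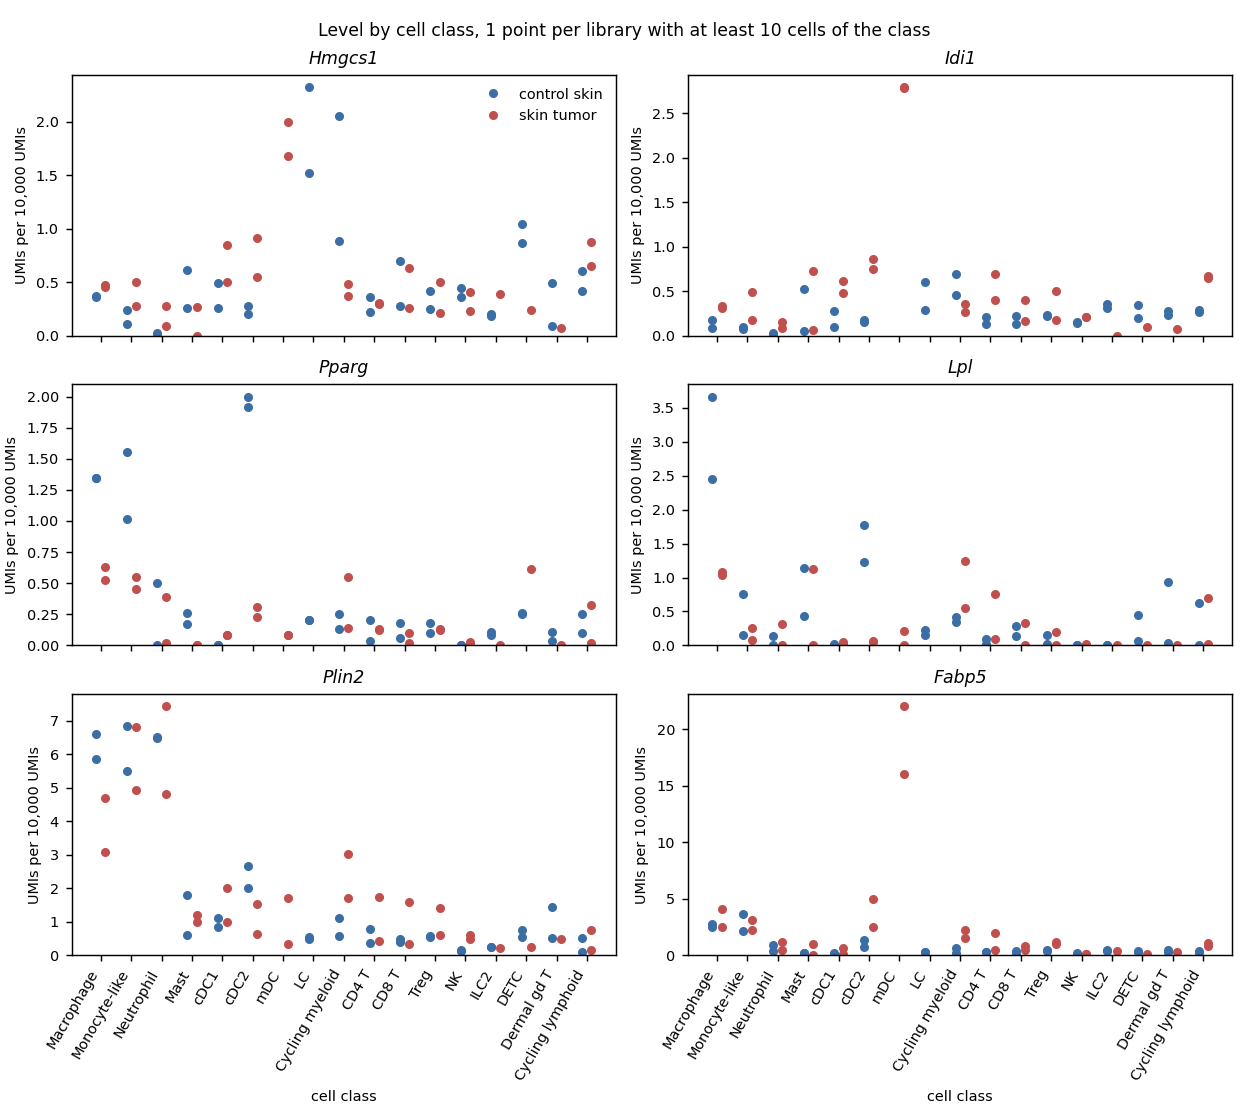
Level (UMIs per 10,000 UMIs of the class, linear axes that differ between panels) of Hmgcs1, Idi1, Pparg, Lpl, Plin2 and Fabp5 in the 17 classes, 1 point per library with at least 10 cells of the class. The tumor mDC points lie highest for Idi1 and Fabp5, the control macrophage points for Lpl and the control cDC2 points for Pparg.

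A further 41 genes of the same pathways, listed with the 34, were counted in each class. Their list too was drawn up with earlier results of these data known. In macrophages, 39 were tested, 1 rose and none fell by edgeR, next to 0.799% and 1.41% of all genes. At an unadjusted p under 0.05 there were 9. The one that rose was the scavenger receptor Msr1, with a log2 change of 1.03 (SE 0.19, adjusted p = 0.0493). Next by adjusted p were Acsl1, which activates fatty acids, with 1.49 (SE 0.29), and Trem2, a lipid receptor of macrophages, with -1.03 (SE 0.22), and neither was called.

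In cDC2, 32 of the 41 genes were tested, 1 rose and 2 fell, next to 3.82% and 5.97% of all genes. The lipoprotein receptor Lrp1 had -2.14 (SE 0.29, adjusted p = 0.00686) and the lysosomal sterol carrier Npc2 -1.10 (SE 0.18, adjusted p = 0.0125), while the elongase Elovl5 had 0.98 (SE 0.21, adjusted p = 0.0299). These 3 genes, and Rxra outside CD8 T cells, were named after their values were seen. In CD8 T cells, 27 were tested and 1 fell, Rxra, the partner receptor of LXR and PPAR, with -3.28 (SE 0.61, adjusted p = 0.0465). It was followed by Elovl5 with -0.82 (SE 0.18) and Dgat1, which makes triglycerides, with -0.98 (SE 0.24), and neither was called. Rxra also fell in CD4 T cells (-2.28, SE 0.39), cycling lymphoid cells (-4.11, SE 0.56) and cycling myeloid cells (-1.67, SE 0.39). Over all genes, 1.83% fell in CD8 T cells. In CD4 T cells 2 of 31 of these genes fell, next to 1.53% of all genes, and in cycling lymphoid cells 4 of 30 fell, next to 7.53%. In cycling myeloid cells, whose control cells mostly carried Cd207 and whose tumor cells carried C1q, 5 of 31 rose and 2 fell, next to 6.19% and 5.97% of all genes. None was called by edgeR among 32 in monocyte-like cells, 21 in cDC1, 27 in Treg, 10 in NK cells, 14 in neutrophils and 5 in mast cells, where 7, 2, 4, 2, 0 and 1 had an unadjusted p under 0.05.

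The 17 genes called in no class were the enzymes Mvd, Mvk, Fdft1, Sqle, Lss, Nsdhl, Hsd17b7, Dhcr7, Sc5d and Ebp, the regulators Insig1, Srebf1 and Nr1h3, the fatty acid enzymes Acly, Acaca and Fasn, and Plin2. Only 4 of the 34 genes were tested in every class. Fabp5 has processed copies elsewhere in the genome and Scd1 and Scd2 are close relatives, so their counts are less certain where reads could not be placed.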

How the data were processed

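CD45+ DAPI- cells of 2 control skins and 2 skin tumors were profiled by droplet 3′ single-cell RNA-seq. The authors mapped reads to mm10 and deposited raw UMI counts per gene and cell, made with Cell Ranger 7.1.0 per the processing notes (7.0.1 per the file headers), with cells already called. The use of intronic reads is not given in the sources used here. Deposited totals lay between 34893543 and 73904272 UMIs per library.

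Cells with under 100 genes, under 1000 UMIs, over 15% mitochondrial UMIs or a log10 gene to UMI ratio under 0.8 were removed, and likely doublets were removed by simulated neighbours at 1% per 1000 cells. Classes were gated by marker UMIs per 10,000, with no member of the 34 among the markers. UMIs were summed per class and library and tested with edgeR 4.0.16 in R 4.3.3 (TMM, filterByExpr, quasi-likelihood, Benjamini-Hochberg over all genes of the class, threshold 0.05). An SE is the log2 change divided by the square root of the F value. The difference between classes was tested as an interaction with the library as a block. Shares of cells were taken after thinning to 1000 UMIs per cell, which left out 0 cells. Tests were first run on simulated counts.

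Every listed gene is named, and those called in a class are given per library. Of 41 other pathway genes, the 3 with the smallest adjusted p in macrophages and CD8 T cells are named. The members, lists and tests were chosen with earlier results of these data known. Alternatives covered normalization, filters, gates, DESeq2 1.42.0, a replicate block and leaving out each library. Gene positions were taken from the GENCODE annotation and promoter windows from RefSeq, both on GRCm38, the build also called mm10. The alleles of the mouse that gave the 2323 line are not reported here.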

Additional observations from a re-analysis of the deposited data

Results flagged for a closer look

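The tumor effect differed between classes, by an interaction test in edgeR with the library as a block and Benjamini-Hochberg adjustment, for 6 pairs of gene and class. In macrophages against cDC2, the log2 effect in macrophages minus that in cDC2 was 3.20 for Lpl, 2.95 for Abca1, 1.67 for Pparg, -1.64 for Pmvk and -1.52 for Fabp5. In macrophages against monocyte-like cells it was -1.73 for Pmvk. Macrophage markers in cDC2 were lower in tumors (3.76 and 3.89 UMIs per 10,000) than in control skin (9.13 and 10.0), and their part in these differences was not tested.

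Sterol enzymes called in opposite directions in cDC2 and cycling myeloid cells were Hmgcs1 (log2 1.47 and -1.80), Pmvk (1.23 and -1.37) and Cyp51 (1.43 and -1.25). The difference between these classes was not tested. Cd207 was found in 21 of 24 and 28 of 36 control cycling myeloid cells and in 1 of 143 and 0 of 29 tumor cells.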

How the results depend on the processing

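All 30 calls kept their sign under every alternative that gave a value, and all 30 stayed called with RLE factors and with no filter on low counts. The alternatives reuse the same libraries, so a kept sign is no independent support. Where both tumor libraries lay on the same side of both controls, leaving out 1 library could hardly reverse a sign. With 2 libraries per group, leaving out 1 library left a lone sample that is assumed to vary like the other group, and 19, 22, 12 and 2 of the 30 calls were lost without control skin 1, control skin 2, skin tumor 1 and skin tumor 2. Genes that rose then ranged from 0 to 3 in macrophages, 0 to 7 in monocyte-like cells, 0 to 1 in cDC1, 1 to 10 in cDC2, 0 to 5 in CD4 T, 0 to 4 in CD8 T, 0 to 1 in Treg, 0 to 1 in NK, 0 to 4 in cycling myeloid and 0 to 3 in cycling lymphoid cells. Genes that fell ranged from 0 to 7 in macrophages, 0 to 3 in monocyte-like cells, 0 to 2 in cDC1, 5 to 7 in cDC2, 0 to 2 in CD4 T, 0 to 2 in CD8 T, 0 to 1 in Treg, 0 to 6 in cycling myeloid and 0 to 3 in cycling lymphoid cells. With no filter on low counts, which moved the median log2 change of all genes by more than 0.1 in most classes, the most in cDC1 (to 0.29), 3 genes rose and 7 fell in macrophages, 6 rose and 4 fell in monocyte-like cells, 10 rose in cDC2, 4 in CD4 T, 2 in CD8 T and 5 in cycling myeloid cells, 1 rose and 1 fell in Treg and 2 fell in cycling lymphoid cells. By DESeq2, 1 gene rose in macrophages, 0 fell in cDC1, 3 rose in cycling myeloid and 1 in cycling lymphoid cells. Without cells carrying non-immune UMIs, 1 fell in monocyte-like cells, 0 fell in cycling myeloid cells and 1 rose and 1 fell in cycling lymphoid cells. With doubled gates, 0 fell in monocyte-like cells, 1 rose in CD8 T and 0 in cycling lymphoid cells. With at most 5% mitochondrial UMIs, 0 fell in monocyte-like cells, 0 rose in cycling myeloid and 1 in cycling lymphoid cells. With no mitochondrial or complexity filter, 0 rose in cycling myeloid and 1 in cycling lymphoid cells, and with doublets kept, 1 rose in each of CD4 T, CD8 T and cycling lymphoid cells. Without cDC2 carrying macrophage markers, chosen after seeing the data, 2 genes rose and 3 fell in cDC2. Over all genes, the number called also changed with these settings. With no filter on low counts, macrophages had 676 rises and 627 falls of 20702 genes, against 97 and 171 of 12147 with the filter. Monocyte-like cells had 329 and 421 of 17227, against 64 and 160 of 8681. In cDC2 there were 658 and 1031 of 16047, against 325 and 507 of 8499. Cycling myeloid cells had 1161 and 850 of 17119, against 516 and 498 of 8335. The cause of these changes was not tested.

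With a replicate block, 1 gene fell in monocyte-like cells, 0 in cDC1, and 3 rose in cycling myeloid and 0 in cycling lymphoid cells. Same-numbered libraries deviated together with correlations between -0.16 and 0.23 over classes. With 2 libraries per group, these values cannot show whether same-numbered libraries were handled together. Without the library block, 2 genes differed between macrophages and cDC2 and 0 between macrophages and monocyte-like cells. Averaged over cells, Cd36 in control macrophages was at 3.65 UMIs per 10,000. Without thinning, the shares of cells with a UMI were 85.2% for Fabp5 in tumor mDC, 44.7% for Lpl and 50.6% for Cd36 in control macrophages and 73.4% for Hmgcs1 in control Langerhans-like cells. NK cells could not be tested with at most 5% mitochondrial UMIs, without non-immune UMIs or with doubled gates, nor cDC1 and cycling myeloid cells with doubled gates, for want of 10 cells per library.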
